A study of Caenorhabditis elegans with 16 samples.

Results

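The comparison described here sets germline tumors of Caenorhabditis elegans dissected after 2 h of auxin against control tumors that had 0 h of auxin. All 8 libraries with these labels were taken, 4 for each time, of the 16 libraries in the series. Fold changes rest on 6 of them, 2 h libraries 1 and 2 and control libraries 1 to 4, because these share 1 deposited table. The 2 h libraries 3 and 4 were deposited in a second table that holds no control, and they are given as levels only. Of 46536 genes, the 7684 with at least 1 CPM (the authors' unit, reads scaled to a common library total) in at least 2 libraries of the first table were tested.

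The 2 h and the control animals shared 1 genotype. It joined glp-1(ar202) and lag-1(oz536oz537) to gld-1(q485) and gld-2(q497) and added the transgene ieSi64, in which the gld-1 promoter drives TIR1 fused to mRuby. Both were adults of 1 day in the Bristol background, grown from synchronised larvae for 48 h at 25 °C, and the treated animals received 1 mM auxin before the gonads were cut out. No library came from auxin-treated animals without the altered lag-1 gene, so an effect of auxin itself and an effect through lag-1 cannot be told apart. What was changed in lag-1 is not described in the labels, LAG-1 protein was not measured, and lag-1 RNA does not check its loss. The gld-1 promoter limits TIR1 to the cells in which that promoter is active. Each time is labelled as 4 biological replicates with no account of how they were collected, so a p-value here measures only how libraries differ, which may be technical.

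In the worm germline, signalling from the distal tip cell through the Notch receptor GLP-1 keeps the most distal germ cells in mitosis. The cut receptor enters the nucleus and joins the DNA-binding protein LAG-1 and the co-activator SEL-8 to switch on a small set of genes, of which lst-1 and sygl-1 are the best known. LST-1 and SYGL-1 work with the RNA-binding proteins FBF-1 and FBF-2, which hold mRNAs of meiosis and differentiation in check, while GLD-1 and GLD-2 lead the parallel pathways into meiosis. Loss of both pathways together with an overactive GLP-1 gives a tumor of germ cells that do not complete meiotic entry. In an auxin system, the plant receptor TIR1 marks proteins that carry a degron tag for breakdown.

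The 8 libraries held 21265516 to 33888940 reads. Control libraries 1 and 3 stood apart in composition. Ribosomal RNA took 36.2%, 33.6%, 38.1% and 39.1% of reads in 2 h libraries 1 to 4, and 53.3%, 34.0%, 51.7% and 34.0% in control libraries 1 to 4. Controls 1 and 3 both lay below controls 2 and 4 for 5627 of the tested genes (73.2%), with a median difference of -0.42 on the log2 scale. For gene length, each library was centred and each gene set against its own mean over the 10 libraries of the first table. The median of the longest 20% of protein-coding genes was then compared with that of the shortest 20%. The difference was -0.67 and -0.57 (log2 scale) in controls 1 and 3, and 0.29 and 0.22 in controls 2 and 4. In 2 h libraries 1 and 2 the same difference was -0.023 and 0.35. The part of this composition in the results was not tested, and fold changes are given with all 10 libraries of the first table and without these controls.

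**Figure D1:**
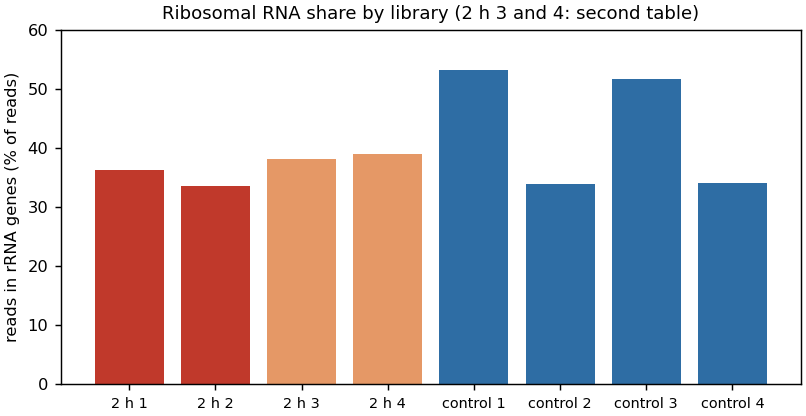
Share of reads in ribosomal RNA genes (percent, linear axis from 0) in each library, 1 bar per library; red, 2 h libraries of the first table; orange, 2 h libraries of the second table; blue, controls. Controls 1 and 3, at 53.3% and 51.7%, stand above the 2 h libraries (33.6% to 39.1%) and above controls 2 and 4 (34.0% each).

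The LAG-1 targets lst-1 and sygl-1 were lower in 2 h libraries 1 and 2 than in every control, as were 0.976% of tested genes. Among such genes with a mean of at least 5 CPM, these 2 had the largest falls in level. Transcripts of lst-1 (gene WBGene00003083, at 10588501 to 10590465 of chromosome I in WBcel235) were at 17.4 and 18.8 CPM in 2 h libraries 1 and 2, against 38.8, 89.5, 35.0 and 57.1 CPM in controls 1 to 4. The 2 h libraries 3 and 4 of the second table had 14.5 and 13.1 CPM. The 2 h level was thus 0.328 of the control mean, and 0.247 of the mean of controls 2 and 4. LST-1 and SYGL-1 are redundant in keeping germline stem cells.

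Transcripts of sygl-1 (WBGene00012104, at 12483809 to 12486235 of chromosome I) were at 1.36 and 2.66 CPM in 2 h libraries 1 and 2, against 9.39, 29.8, 8.68 and 13.4 CPM in the controls. The 2 h libraries 3 and 4 had 1.14 and 0.826 CPM, still above the floor of 3 reads that a count of 0 allows in these libraries (0.0885 to 0.141 CPM). The 2 h level was 0.132 of the control mean and 0.0933 of the mean of controls 2 and 4. Controls varied more than 3-fold among themselves for sygl-1, with control 2 the highest for both genes. In bulk tumors, fewer cells that express these genes and less of their RNA per cell cannot be told apart.

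Neither gene passed the test across all genes with all 10 libraries of the first table, the 4 libraries of 48 h auxin included, which add to the estimate of the spread. The log2 fold change of lst-1 was -1.46 ± 0.31 (SE; limma adjusted p = 0.520), and that of sygl-1 was -2.30 ± 0.45 (SE; limma adjusted p = 0.404). Fold changes were taken on log2(CPM + 1), so those of genes near 1 CPM come out too small. Leaving out controls 1 and 3 and 48 h library 1, in which ribosomal RNA took 44.9% of reads, leaves 2 h libraries 1 and 2, controls 2 and 4 and 3 libraries of 48 h. In this 7-library fit lst-1 fell by 1.93 ± 0.15 (SE; limma adjusted p = 2.58e-05) and sygl-1 by 2.84 ± 0.28 (SE; limma adjusted p = 0.000251), both on the log2 scale. Without controls 1 and 3 alone the fold changes were the same but neither passed (lst-1 at a limma adjusted p of 0.102, sygl-1 at 0.421). Both calls thus also rest on leaving out 48 h library 1, which enters only the spread. Their direction was the same under all 29 other settings, lst-1 passing in 10 of them and sygl-1 in 7. Settings that change only the filter, the trend or the 48 h libraries cannot move a fold change, so the same direction in those was fixed in advance.

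The other genes reported as germline targets of GLP-1 did not pass in either fit, and 2 h libraries 1 and 2 overlapped the controls for each. The lip-1 transcript, for a phosphatase that restrains MAP kinase signalling, had 3.39 and 4.78 CPM at 2 h, against 1.68, 4.55, 2.60 and 3.81 CPM in controls. For fbf-2, an RNA-binding partner of LST-1 and SYGL-1, the values were 164 and 181 CPM at 2 h, against 101, 178, 103 and 175 CPM in controls. The utx-1 transcript, for a histone H3K27 demethylase, lay near the detection floor (0.658 and 1.10 CPM at 2 h, against 0.335, 1.35, 0.153 and 1.13 CPM). In the 7-library fit the 95% interval of the log2 fold change was -0.40 to 0.32 for lip-1 and -0.19 to 0.12 for fbf-2, and both excluded a fall of the size seen for lst-1. With all 10 libraries the log2 fold changes were 0.33 for lip-1 and 0.36 for fbf-2.

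For the receptor gene glp-1 and the other genes mutated in the strain, 2 h libraries 1 and 2 overlapped the controls. Counts for lag-1, which encodes the transcription factor itself, were 48.8 and 59.7 CPM at 2 h, against 30.2, 75.0, 34.0 and 65.3 CPM in controls. The 2 h values lay between the low pair of controls, 1 and 3, and the high pair, 2 and 4. Its log2 fold change was 0.18 (95% interval -0.58 to 0.95) with all libraries and -0.37 (95% interval -0.58 to -0.16; limma adjusted p = 0.219) in the 7-library fit, so the sign followed the choice of controls. With the length trend also removed from those 7 libraries it was -0.32 (limma adjusted p = 0.0198).

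The glp-1 transcript was at 257 and 305 CPM at 2 h, against 136, 324, 148 and 283 CPM in controls. For gld-1, which encodes a translational repressor that promotes meiosis, the values were 72.0 and 71.6 CPM at 2 h, against 39.5, 86.7, 44.4 and 85.95 CPM. The gene of the cytoplasmic poly(A) polymerase GLD-2 had 47.5 and 56.4 CPM at 2 h, against 22.0, 55.9, 27.8 and 50.1 CPM. All of these again fell between the control pairs or beside the high pair. Their log2 fold changes were 0.43, 0.25 and 0.50 with 10 libraries and -0.11, -0.26 and -0.03 with 7, for glp-1, gld-1 and gld-2. In the 2 h libraries of the second table, gld-1 was lower, at 46.1 and 49.7 CPM, whereas glp-1 (293 and 292 CPM) and gld-2 (43.5 and 45.1 CPM) were near the first. Reads of lag-1, glp-1 and gld-2 may include those of overlapping genes, because the sources used here do not say whether reads were counted by strand.

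**Figure D2:**
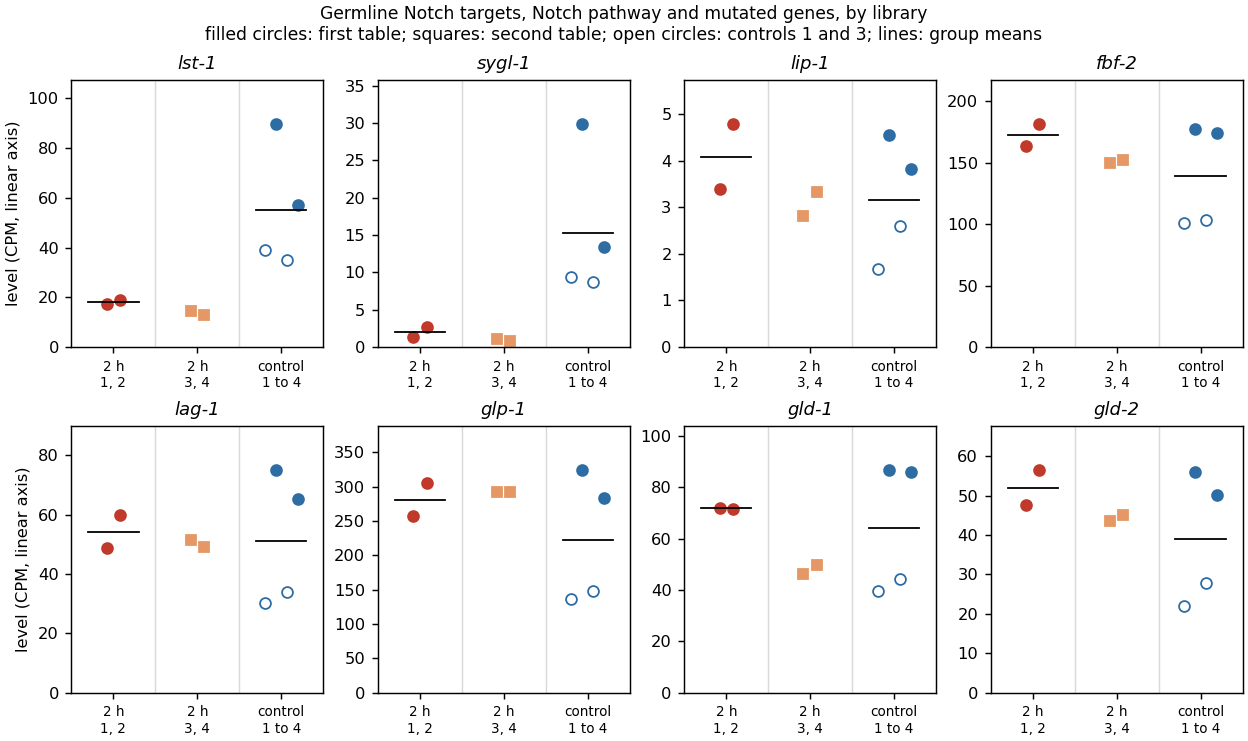
Levels (CPM, linear axes from 0) of 4 germline Notch targets, gld-1, gld-2, glp-1 and lag-1, with 1 point per library, 2 h libraries 1 and 2 at the left, 2 h libraries 3 and 4 in the middle and controls at the right; lines are means of groups of the first table. The 2 h libraries 1 and 2 lie below every control for lst-1 and sygl-1. In every panel the open circles of controls 1 and 3 lie below the other controls.

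Across all genes, limma with the 10 libraries called 0 of 7684 at an adjusted p under 0.05 (0%; 429 genes, or 5.58%, at an unadjusted p under 0.05). On the recovered reads edgeR called 0 and DESeq2 called 29 (0.377%; 24, or 0.312%, higher and 5, or 0.0651%, lower at 2 h). The 2 h libraries 1 and 2 both lay above all 4 controls for 1369 genes (17.8%) and below them for 75 (0.976%). Of those 1369 genes, 989 (72.2%) had a 2 h mean under 1.2 times the mean of controls 2 and 4. An exact permutation test of 2 against 4 libraries cannot go below p = 0.133, so no single gene can pass alone. Over all genes the median log2 fold change was 0.24 with the 10 libraries and 0.016 in the 7-library fit.

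The 7-library fit called 27 genes (0.351%), of which 22 rose (0.286%) and 5 fell (0.0651%). Without controls 1 and 3 alone, with 48 h library 1 kept, limma called 0 (184 genes at an unadjusted p under 0.05), so these calls hold for that choice of libraries, with 2 libraries at 2 h set against 2 controls. All 27 are protein-coding, as are 93.4% of tested genes, so this is near the background. Among the 22 that rose were genes of the meiotic chromosome axis (him-3, htp-1, htp-2 and htp-3), of the synaptonemal complex and pairing (F57B10.4 and C17E4.4) and of recombination (him-6). Cyclin B genes (cyb-2.1 and cyb-2.2), the cell cycle inhibitor cki-2, the germline RNA genes cpb-3 and rrf-1 and the Notch co-activator gene sel-8 also rose. Their log2 fold changes lay between 0.37 and 0.92, below those of lst-1 and sygl-1 in size. In the 10-library fit all 22 had a positive log2 fold change, from 0.62 (F57B10.4) to 1.398 (epg-5), and none passed, with limma adjusted p from 0.252 (cyb-2.2) to 0.520.

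**Figure D3:**
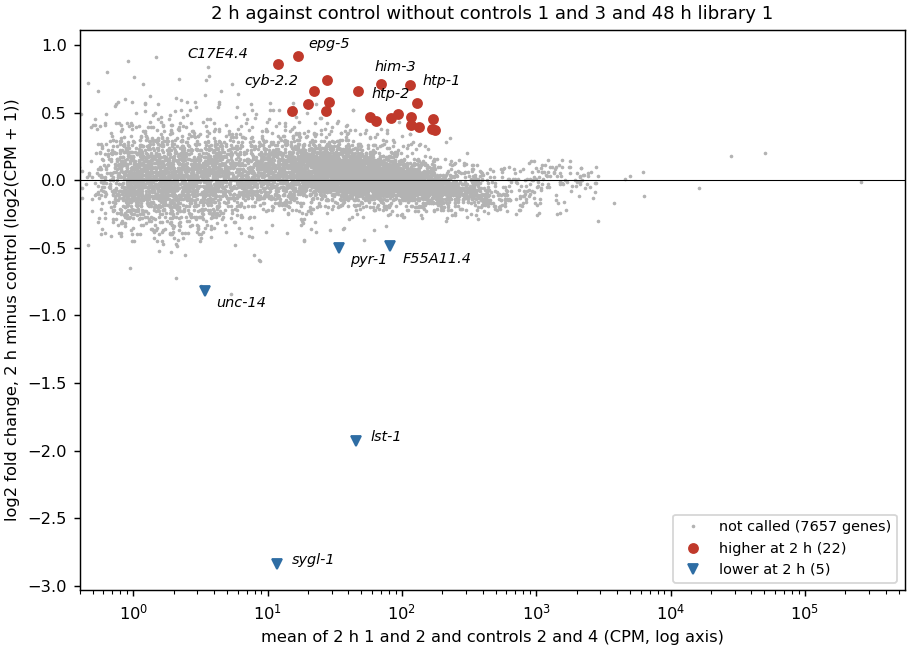
Log2 fold change at 2 h minus control in the 7-library fit (vertical, on log2(CPM + 1)) against the mean level of 2 h libraries 1 and 2 and controls 2 and 4 (CPM, log axis), 1 point per tested gene; red circles are the 22 genes that rose and blue triangles the 5 that fell. The 2 lowest points are sygl-1 and lst-1, at -2.84 and -1.93, and the genes that rose lie between 0.37 and 0.92.

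HIM-3, HTP-1, HTP-2 and HTP-3 are the HORMA domain proteins of worm meiosis, which line chromosome axes and are needed for pairing and crossing over. The him-3 transcript (WBGene00001862, chromosome IV, 6977508 to 6978765) had 96.0 and 79.2 CPM in 2 h libraries 1 and 2, against 52.9, 50.3, 48.9 and 55.5 CPM in controls. Its 2 h libraries 3 and 4 had 82.1 and 86.2 CPM. Unlike most genes, him-3 was nearly level in CPM across the 4 controls. The fold change was 0.74 ± 0.14 (log2, SE; limma adjusted p = 0.404) with 10 libraries and 0.71 ± 0.09 (limma adjusted p = 0.00294) with 7. With median centring of the 10 libraries it was 0.45 (limma adjusted p = 0.789). The part of controls 1 and 3 in this rise was not tested.

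The htp-1 transcript (chromosome IV, 5390189 to 5391557) had 152 and 132 CPM at 2 h, against 75.4, 83.7, 79.1 and 89.7 CPM in controls. Its near-identical paralog htp-2 (chromosome IV, 6419522 to 6420898) had 60.9 and 55.9 CPM at 2 h, against 27.0, 34.1, 28.6 and 39.0 CPM. Reads of this pair may not have been separated, so their 2 rises are not independent of each other. In the 7-library fit htp-1 rose by 0.70 ± 0.08 (log2, SE; limma adjusted p = 0.00140) and htp-2 by 0.66 ± 0.09 (limma adjusted p = 0.00347). With 10 libraries the values were 0.78 and 0.85. The scaffold member htp-3 (chromosome I, 4827072 to 4829791) had 197 and 198 CPM at 2 h, against 78.3, 140, 89.6 and 150 CPM in controls. For htp-3 the controls split into pairs, and the rise in the 7-library fit was 0.45 ± 0.08 (log2, SE; limma adjusted p = 0.0214), against 0.84 with 10 libraries.

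Of the 12 tested genes of the chromosome axis, these 4 rose in the 7-library fit and 0 fell, where 0.286% of all genes rose, and 6 lay above every control, as did 17.8% of all genes. The other 2 above every control were the meiotic kleisin genes coh-3 and coh-4. The 8 axis genes outside the HORMA family did not pass, with 7-library log2 fold changes from -0.10 (smc-3) to 0.27 (coh-4) and 10-library ones from 0.02 (lab-1) to 0.78 (pqn-85). The meiotic kleisin rec-8 was at 185 and 202 CPM at 2 h, against 78.3, 191, 94.0 and 186 CPM in controls, which in the 7-library fit was a difference of 0.04 ± 0.07 (log2, SE; limma adjusted p = 0.934). The cohesin subunit smc-3 was at 253 and 313 CPM at 2 h, against 118, 321, 141 and 285 CPM in controls, which was a difference of -0.10 ± 0.09 (log2, SE; limma adjusted p = 0.844). The list's median log2 fold change, less that of all genes, was 0.40 with 10 libraries and 0.12 with 7. It had the same sign under each of the 6 scalings and subsets run.

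The synaptonemal complex holds paired homologous chromosomes together. Of its 8 tested genes 1 rose, F57B10.4 (annotated as syp-6), which had 195 and 186 CPM at 2 h, against 97.9, 141, 110 and 151 CPM in controls (7-library log2 fold change 0.38, limma adjusted p = 0.0418; 10-library 0.62). The central-region gene syp-2 had 47.5 and 40.9 CPM at 2 h, against 29.6, 32.3, 31.5 and 33.9 CPM in controls, which in the 7-library fit was a difference of 0.40 ± 0.09 (log2, SE; limma adjusted p = 0.0949), and with 10 libraries 0.46. Its partner syp-1 had 18.4 and 16.0 CPM at 2 h, against 9.12, 14.5, 11.0 and 11.7 CPM (0.38, limma adjusted p = 0.412; 10-library 0.55). The 2 h libraries 3 and 4 had 13.01 and 12.6 CPM of syp-1, inside the control range. In 2 h libraries 1 and 2, 6 of the 8 genes lay above every control, syp-1 and syp-2 among them, against 17.8% of all genes. The share of all genes that rose was 0.286%. The list's median, less that of all genes, was 0.19 with 10 libraries and 0.34 with 7.

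Of 40 genes for pairing, double-strand breaks and crossovers, 1 rose and 0 fell in the 7-library fit (0.286% of all genes rose), and 14 (35.0%) lay above every control (17.8% of all genes). The one that rose was him-6, the worm BLM helicase, with 145 and 161 CPM at 2 h, against 51.3, 119, 63.8 and 113 CPM in controls (log2 fold change 0.39, limma adjusted p = 0.0418; 10-library 0.89). The break-promoting gene dsb-1 had 47.5 and 42.4 CPM at 2 h, against 21.2, 33.7, 24.4 and 33.3 CPM, and did not pass there (0.41, limma adjusted p = 0.0582; 10-library 0.68). Outside the lists, C17E4.4 (annotated as mjl-1, which acts at the nuclear envelope in meiotic pairing) was at 17.9 and 13.5 CPM at 2 h, against 9.59, 6.96, 10.9 and 9.48 CPM in controls. It rose by 0.86 ± 0.15 (log2, SE; limma adjusted p = 0.0224) with 7 libraries, against 0.71 with 10, and its lowest control was control 2.

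Both genes of the CYB-2 pair of B-type cyclins, which drive entry into M phase, rose. The cyb-2.2 transcript (WBGene00000867, chromosome I, 4114861 to 4116370) was at 36.3 and 33.4 CPM at 2 h, against 17.3, 19.95, 17.5 and 21.0 CPM in controls. Its close paralog cyb-2.1 (chromosome IV, 10985985 to 10987426), with which it may share reads, was at 24.4 and 23.7 CPM at 2 h, against 12.9, 15.2, 13.8 and 16.9 CPM. Both had tight controls. The 2 h libraries 3 and 4 of the second table had 32.1 and 31.0 CPM for cyb-2.2, and 22.1 and 21.4 CPM for cyb-2.1. In the 7-library fit cyb-2.2 rose by 0.74 ± 0.09 (log2, SE; limma adjusted p = 0.00140) and cyb-2.1 by 0.56 ± 0.09 (limma adjusted p = 0.0207). With 10 libraries the values were 0.85 and 0.68.

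The cyclin-dependent kinase inhibitor gene cki-2 (chromosome II, 7816499 to 7820281) was at 18.3 and 18.0 CPM at 2 h, against 6.84, 12.3, 7.89 and 12.7 CPM in controls. Its levels in the 2 h libraries of the second table (12.1 and 11.8 CPM) were within the range of the controls of the first. It rose by 0.51 ± 0.09 (log2, SE; limma adjusted p = 0.0327) with 7 libraries, against 0.85 with 10. Of 35 cyclins, kinases and regulators tested, these 3 rose and 0 fell (0.286% of all genes rose), and 10 (28.6%) lay above every control (17.8% of all genes). The S-phase kinase gene cdk-2 (18.6 and 19.8 CPM at 2 h, against 8.99, 15.1, 11.4 and 14.9 CPM) did not pass with 7 libraries (0.33, limma adjusted p = 0.243; 10-library 0.59). Nor did fzr-1, an activator of the anaphase-promoting complex (60.8 and 66.8 CPM at 2 h, against 20.03, 51.5, 23.4 and 51.0 CPM; 0.31, limma adjusted p = 0.175; 10-library 0.91).

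Several of these genes, him-3, htp-1, htp-2, cyb-2.1 and cki-2, are on a list of 22 mRNAs reported as bound by FBF. Of its 21 tested members these 5 rose in the 7-library fit and 0 fell (0.286% of all genes rose), and 10 (47.6%) lay above every control (17.8% of all genes). The list's median, less that of all genes, was 0.25 with 10 libraries and 0.07 with 7. The gene gld-1, itself an FBF target in worms, did not pass (7-library log2 fold change -0.26, 95% interval -0.43 to -0.10, limma adjusted p = 0.311).

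Of 28 partners of FBF and regulators of the stem cell decision, 1 rose (against 0.286% of all genes), cpb-3, which encodes a cytoplasmic polyadenylation element binding protein. It had 127.2 and 139 CPM at 2 h, against 49.5, 100, 58.2 and 99.3 CPM in controls (7-library log2 fold change 0.41, limma adjusted p = 0.0251; 10-library 0.85). The meiotic entry gene prom-1, for an F-box protein, had 40.0 and 36.2 CPM at 2 h, against 18.3, 27.8, 20.5 and 28.4 CPM, and did not pass (0.42, limma adjusted p = 0.0533; 10-library 0.68). In the Notch pathway itself, 1 of 21 core genes rose (4.76%, against 0.286% of all genes): sel-8 was at 25.6 and 28.9 CPM at 2 h, against 6.27, 15.4, 8.93 and 18.4 CPM in controls. Its rise was 0.66 ± 0.10 (log2, SE; limma adjusted p = 0.0142) with 7 libraries, against 1.196 with 10, and 2 h libraries 3 and 4 had 24.9 and 21.7 CPM.

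Of 54 germ granule and small RNA genes, 1 rose and 0 fell in the 7-library fit (0.286% of all genes rose). Above every control lay 10 of them (18.5%), near the 17.8% of all genes. The one that rose was rrf-1, an RNA-directed RNA polymerase gene, at 126.6 and 143 CPM at 2 h, against 49.6, 97.5, 62.2 and 96.3 CPM in controls (7-library log2 fold change 0.47, limma adjusted p = 0.0246; 10-library 0.87). The exonuclease gene mut-7 of the same list (150 and 176 CPM at 2 h, against 76.0, 138, 79.3 and 135 CPM) did not pass (0.25, limma adjusted p = 0.426; 10-library 0.65). Its 2 h levels were above every control, but control 2 lay only a little lower.

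**Figure D4:**
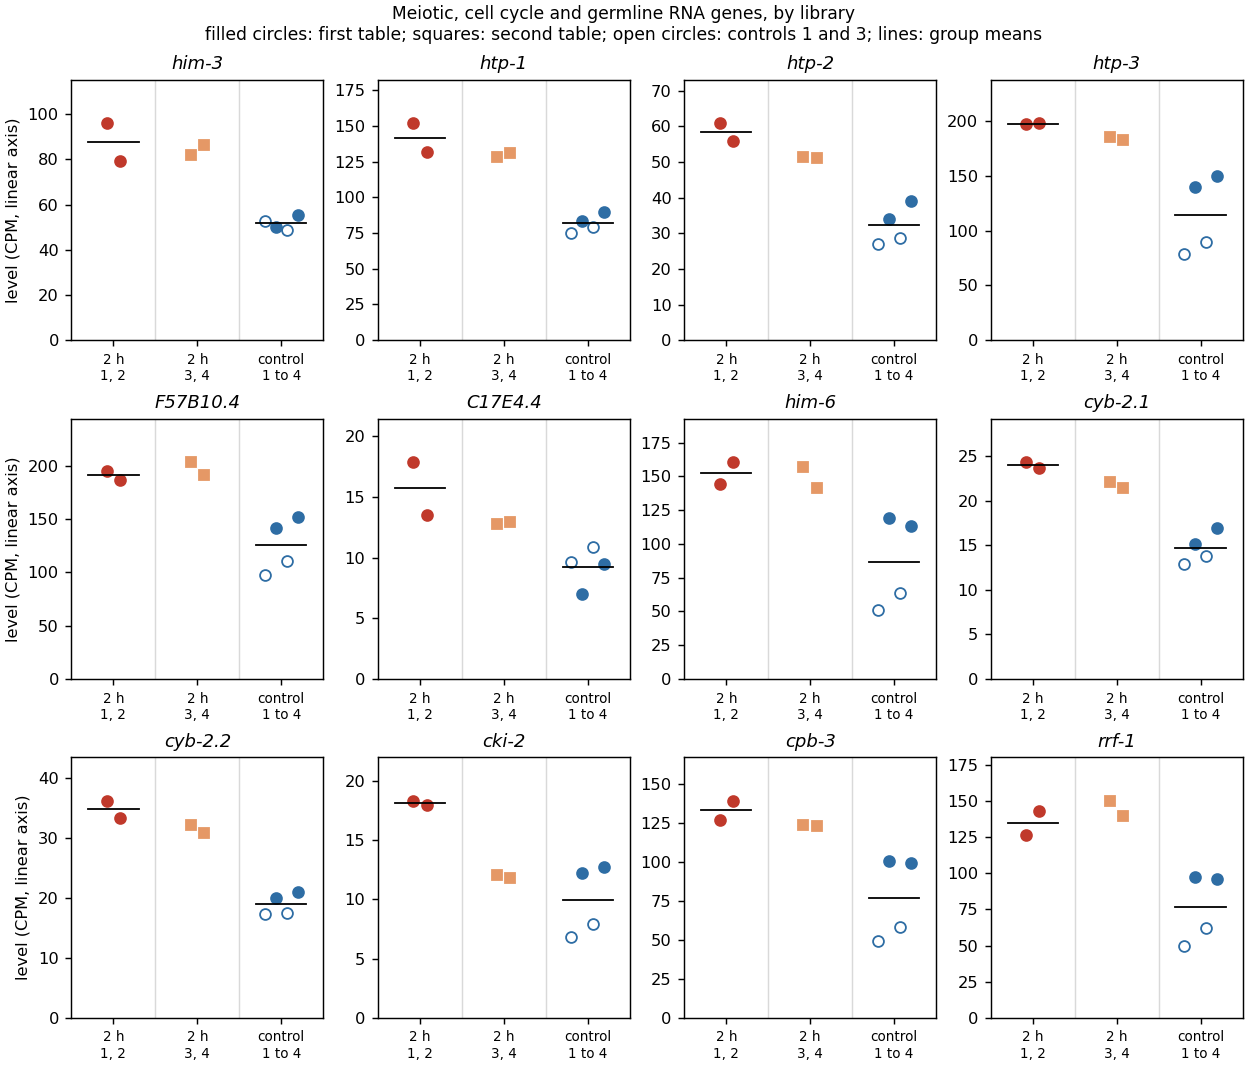
Levels (CPM, linear axes from 0) of 12 meiotic, cell cycle and germline RNA genes that rose in the 7-library fit, with 1 point per library, 2 h libraries 1 and 2 at the left, 2 h libraries 3 and 4 in the middle and controls at the right; lines are means of groups of the first table. The 4 controls lie close together for him-3, htp-1, cyb-2.1 and cyb-2.2, split into pairs for htp-3, him-6, cpb-3 and rrf-1, and for cki-2 the squares lie level with controls 2 and 4.

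Outside these groups the largest 7-library rise was epg-5, an autophagy gene, by 0.92 ± 0.18 (log2, SE; limma adjusted p = 0.0492; 10-library 1.398). It was at 20.3 and 24.2 CPM at 2 h, against 3.49, 9.59, 7.92 and 13.2 CPM in controls, which themselves varied more than 3-fold, and it overlaps vps-33.2. The unnamed gene ZK616.5 rose by 0.58 ± 0.09 (log2, SE; limma adjusted p = 0.0135; 10-library 0.91), with 35.3 and 33.3 CPM at 2 h, against 12.6, 21.2, 15.04 and 24.3 CPM. It lies close to htp-1 on chromosome IV (5391929 to 5393578), on the other strand, and the annotated genes do not overlap.

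The GTPase gene raga-1, which acts in TORC1 signalling, was at 74.5 and 73.8 CPM at 2 h, against 37.7, 52.8, 43.4 and 56.2 CPM in controls (0.44, limma adjusted p = 0.0207; 10-library 0.65). The cullin ligase receptor gene zyg-11 was at 64.8 and 71.1 CPM at 2 h, against 31.5, 46.9, 31.2 and 50.5 CPM (0.47, limma adjusted p = 0.0285; 10-library 0.78), and it overlaps hda-2. The other genes that rose were cgp-1 (0.49), C23G10.7 (0.57), the solute carrier gene slc-17.2 (0.46), C30G12.6 (0.37) and the oligosaccharyltransferase gene ostd-1 (0.51), with limma adjusted p of 0.00748 to 0.0418. With 10 libraries their fold changes were from 0.70 (C30G12.6) to 1.03 (cgp-1). Of the 22 genes, him-3 overlaps prkl-1, cgp-1 overlaps F56E10.1, slc-17.2 overlaps tkr-1 and C17E4.4 overlaps C17E4.11, so their reads may include those of the other gene. For ostd-1, 2 h library 4 (23.5 CPM) was just under control 4 (23.6 CPM).

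Apart from lst-1 and sygl-1, 3 genes fell in the 7-library fit, and all 3 overlapped the controls at 2 h once controls 1 and 3 were counted. The pyr-1 transcript, for the first enzymes of pyrimidine synthesis, was at 28.0 and 27.9 CPM at 2 h, against 21.1, 40.3, 20.9 and 39.6 CPM in controls. Its log2 fold change was -0.50 ± 0.08 (SE; limma adjusted p = 0.0207) with 7 libraries and -0.05 with 10. The neuronal transport gene unc-14 was low, at 1.74 and 2.69 CPM at 2 h, against 2.35, 4.55, 2.17 and 4.67 CPM (7-library log2 fold change -0.82, limma adjusted p = 0.0418; 10-library -0.43). F55A11.4 was at 63.7 and 71.1 CPM at 2 h, against 72.4, 104, 65.3 and 86.2 CPM (-0.49, limma adjusted p = 0.0418; 10-library -0.26).

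Of genes with a mean of at least 5 CPM that lay below every control, lst-1 and sygl-1 had the largest falls in level, and the next did not pass in either fit. The transfer RNA gene C04A11.t1 was at 16.5 and 14.5 CPM at 2 h, against 41.7, 27.0, 32.2 and 16.9 CPM in controls (10-library log2 fold change -0.82, limma adjusted p = 0.520; 7-library -0.44). R10E8.6 was at 31.8 and 31.4 CPM at 2 h, against 48.3, 36.8, 57.5 and 45.4 CPM (-0.54, limma adjusted p = 0.520; 7-library -0.36). T22B7.7 was at 6.25 and 5.79 CPM at 2 h, against 8.72, 6.80, 10.4 and 10.1 CPM (-0.50, limma adjusted p = 0.520; 7-library -0.41). For R10E8.6 the highest control was control 3, as opposed to lst-1 and sygl-1, where it was control 2.

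The largest rises on the 10-library scale that did not pass with 7 libraries were mainly genes low in controls 1 and 3. The trithorax-group gene lin-59 was at 38.5 and 50.8 CPM at 2 h, against 12.4, 33.8, 13.7 and 35.2 CPM in controls (10-library log2 fold change 1.02, 7-library 0.35). The eggshell gene cpg-1 was at 122 and 135 CPM at 2 h, against 38.1, 104, 44.2 and 93.0 CPM (1.01 and 0.39). The oocyte regulator lin-41 was at 47.4 and 53.8 CPM at 2 h, against 13.4, 37.2, 20.2 and 40.5 CPM (0.97 and 0.37). In each case the 2 h libraries lay nearer to controls 2 and 4 than to controls 1 and 3.

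No member was called in the 7-library fit for 52 kinetochore and spindle genes, 45 DNA replication genes, 41 oogenesis and maternal genes, 10 spermatogenesis genes, 37 germline chromatin genes, 22 apoptosis and engulfment genes or 14 Ras-MAPK genes (0.351% of all genes were called). With the length trend also removed, which called 104 genes in all (1.35%; 75, or 0.976%, higher and 29, or 0.377%, lower), 2 of these were called: cpg-1 and lin-41 rose. The linker histone gene hil-2 was at 128.1 and 91.5 CPM at 2 h, against 48.0, 85.2, 48.9 and 75.5 CPM in controls (7-library log2 fold change 0.43, limma adjusted p = 0.311; 10-library 0.79). Its 2 h libraries 3 and 4 had 85.99 and 70.7 CPM, at the level of controls 2 and 4.

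The stress response lists held 14 xenobiotic and oxidative response genes, 7 immune response genes and 25 heat shock and unfolded protein genes. None was called in the 7-library fit, in which 0.351% of all genes were, so a count of 0 in lists of this size is near the background. The glutathione S-transferase gene gst-4, which oxidative stress induces, lay below every control, at 1.13 and 1.10 CPM at 2 h, against 2.68, 1.76, 2.51 and 1.75 CPM (10-library log2 fold change -0.57, limma adjusted p = 0.520; 7-library -0.38). The sensor gene of the unfolded protein response, ire-1, was at 125 and 133 CPM at 2 h, against 54.2, 101, 64.0 and 103 CPM (7-library 0.34, limma adjusted p = 0.0787; 10-library 0.73). With the length trend removed as well, ire-1 (0.36, limma adjusted p = 0.00407) and the protein degradation gene sel-1 (limma adjusted p = 0.0124) rose. The median of the 25 heat shock and unfolded protein genes, less that of all genes, was 0.06 with 10 libraries and -0.10 with 7, so its direction depended on the libraries used.

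**Figure D5:**
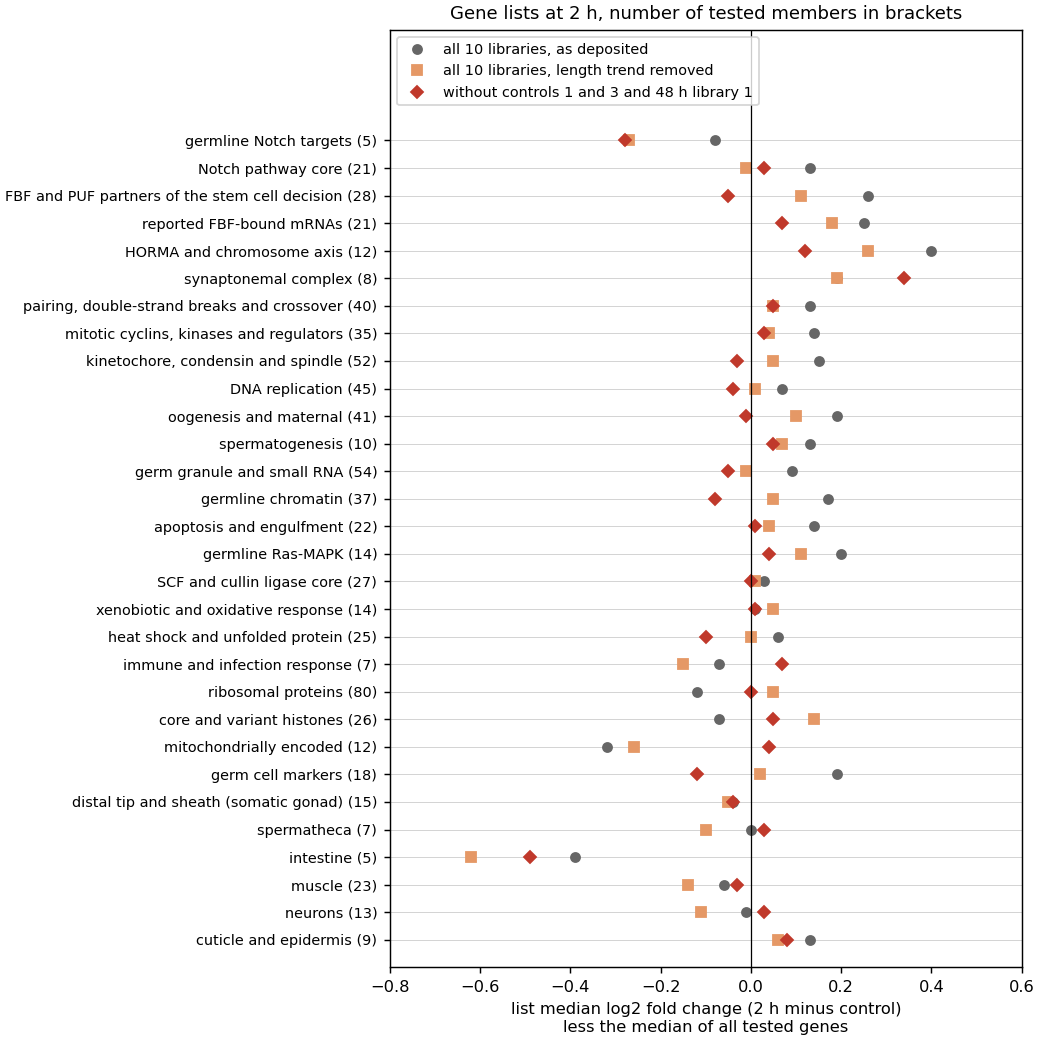
Median log2 fold change at 2 h minus control of each gene list, less the median of all tested genes (horizontal, linear), for 30 lists with the number of tested members in brackets; grey circles, 10 libraries; orange squares, 10 libraries with the length trend removed; red diamonds, the 7-library fit. The chromosome axis and synaptonemal complex lists lie to the right in all 3, as do others such as FBF-bound mRNAs (0.25, 0.18 and 0.07). Germline Notch targets and intestine markers, each with 5 tested members, lie to the left in all 3, as do muscle markers. The median of the Notch targets is the value of utx-1, which lay near the detection floor. With TMM scaling, not shown, that list lay to the right (0.08).

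The tissue label was checked against marker genes. The 18 germ cell markers summed to 4880, 5280, 4418 and 4508 CPM in 2 h libraries 1 to 4, against 2675, 5391, 2908 and 5268 CPM in controls 1 to 4. The germ granule gene pgl-1 alone reached 970 and 1075 CPM in 2 h libraries 1 and 2, against 594, 1156, 660 and 1096 CPM. The low sums were those of controls 1 and 3, as for most messenger RNAs. The 21 intestine markers summed to 10.02, 21.9, 12.1 and 8.94 CPM at 2 h, against 14.02, 32.0, 14.9 and 10.5 CPM in controls, and the intestinal master regulator elt-2 was at 0 in all 4 of the 2 h libraries. The cuticle gene dpy-7 and the sperm gene msp-142 were at 0 in all 8 libraries, but other members of their lists were detected. Across the 8 libraries the 27 cuticle and epidermis markers summed to 36.4 to 79.9 CPM, and the 34 spermatogenesis genes to 132 to 293 CPM. The highest spermatogenesis members were wee-1.3, spe-39 and spe-15. Of the 34, 12 had 3 reads or fewer in all 8 libraries, and the sperm gene msp-31 had at most 1 read. That sum thus does not measure sperm RNA. Sums were 226 to 370 CPM for 28 muscle markers, 96.7 to 202 CPM for 24 neuron markers and 4.87 to 12.7 CPM for 10 pharynx markers. They were 918 to 2514 CPM for 10 spermatheca markers and 338 to 699 CPM for 21 distal tip and sheath markers. The highest members were fln-1, dlc-1 and itr-1 in the spermatheca list, and let-502, tra-1 and inx-14 in the distal tip and sheath list. By contrast, lag-2 of the distal tip was at 0 to 0.101 CPM and lim-7 of the sheath at 1.24 to 2.34 CPM. The 2 sums thus do not measure how much RNA came from the somatic gonad. The muscle myosin gene unc-54 was at 37.9 and 41.9 CPM in 2 h libraries 1 and 2, against 25.6, 43.2, 25.0 and 43.7 CPM. The part of these cells in the results was not tested.

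Gene length and chromosome, which the test did not use, were tallied for the genes called with 7 libraries. The 22 that rose had a median length of 1818 bases, against 1454 for all tested genes. Of these 22, 7 lie on chromosome I (31.8%, against 22.8% of tested genes) and 0 on chromosome X (0%, against 4.71% of tested genes). For 22 genes both shares are near the background. On chromosome X, much of which is silent in worm germ cells, 0 of 362 tested genes were called, against 0.351% of all genes. This count is near the background. There 25 genes (6.91%) lay above every control, against 17.8% of all genes, and 13 (3.59%) lay below, against 0.976%. The median fold change of X genes, less that of all genes, was -0.15 with 10 libraries and -0.09 with 7, and it kept its sign in all 6 scalings and subsets.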

How the data were processed

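RNA of dissected tumors was extracted with Trizol, depleted of ribosomal RNA and made into libraries with the Kapa hyper prep kit, per the labels' protocols. The authors deposited a signal per gene, which they call CPM, in 2 tables; the submitters' processing notes list featureCounts 1.4.5 and Subread, STAR 2.0.4b, limma and edgeR without settings, and strand and build were not given there. Every value was a whole multiple of 1 read (100%, tolerance 0.1 read), so whole reads were recovered for edgeR 4.0.16 and DESeq2 1.42.0. No replicates agreed within sampling noise (chi-square per degree of freedom of at least 7.09). Floors cover counting error only.

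The main test was limma 3.58.1 in R 4.3.3, on log2(CPM + 1) with its spread modelled on the mean level, 2-sided, over the 10 libraries of the first table, with Benjamini-Hochberg adjustment over 7684 genes, a threshold of 0.05 and 1 line per gene ID. It was tested on simulated data. Coordinates, lengths and overlaps come from the Ensembl annotation of WBcel235, which holds 46363 of the 46536 gene IDs. No sequences were used.

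Genes were named by this rule: fixed Notch and mutated genes; the 10 largest rises and falls among genes of at least 5 CPM whose groups do not overlap; up to 15 genes each way called in the 7-library fit, the rest of which were added after their values were seen; and called or lowest-p members of each list. The text gives a selection of these. The axis genes rec-8, smc-3, coh-3, coh-4, lab-1 and pqn-85 and the gene syp-2 were added after their values were seen. The members, lists and rules were chosen with earlier results of these data known. Other settings were pseudocounts, filters, scalings, removal of the length trend, subsets of libraries, array weights, a replicate block, edgeR and DESeq2.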

Additional observations from a re-analysis of the deposited data

How the results depend on the processing

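The count of called genes, 0 with all 10 libraries in limma, was also 0 with other pseudocounts, no filter, a 5 CPM filter, the 6 libraries alone, without controls 1 and 3, without the trend, in edgeR, and when any 1 library was left out (0 to 0). It was 1 with median centring and 1 with TMM scaling (lst-1 in both), 7 with the length trend removed, 8 with array weights and 29 in DESeq2. Without controls 1 and 3 and 48 h library 1 it was 27, or 104 with the length trend removed as well. Added after seeing the data, centring those 7 libraries gave 26, edgeR on them 28, and removing the length trend with a replicate block 5. Of the 22 genes that rose with 7 libraries, 22 were called with the length trend also removed, 16 by edgeR on those libraries and 11 by DESeq2.

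Same-numbered 2 h and control libraries deviated together (r = 0.377 and 0.464). With 2 libraries in the group, their deviations mirror each other, so these 2 values are not separate. The r of 2 h library 1 was higher with control 3 (0.513) than with control 1. Over all 8 same-numbered pairs r ran from -0.42 to 0.688, so the libraries share only a number. With the replicate block 0 genes were called, with 1631 at an unadjusted p under 0.05.

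Of the 51 genes whose fold changes were recomputed, 44 kept their direction under all 29 settings. In settings that change only the filter, the trend or the 48 h libraries, the direction could not change. The log2 fold change turned negative for lag-1 and gld-1 with median centring (-0.111, -0.043), TMM scaling (-0.093, -0.028), edgeR (-0.122, -0.051) and DESeq2 (-0.119, -0.048). With array weights it was -0.004 for fbf-2, -0.298 for lag-1, -0.043 for glp-1 and -0.229 for gld-1. In the order lip-1, fbf-2 and lag-1, then glp-1, gld-1 and gld-2, it was -0.039, -0.033, -0.368, -0.113, -0.263 and -0.031 without controls 1 and 3, with or without 48 h library 1. It was -0.053, -0.047, -0.383, -0.127, -0.277 and -0.045 when those 7 libraries were centred, and -0.035, -0.042, -0.377, -0.122, -0.276 and -0.036 in edgeR on them. With the length trend removed from them, lip-1 to gld-1 were at -0.033, -0.029, -0.317, -0.067 and -0.26. With it removed from all 10 libraries, lip-1 was at -0.023, lag-1 at -0.286, glp-1 at -0.027, gld-1 at -0.092 and gld-2 at -0.003. With the replicate block added, lip-1 to gld-2 were at -0.023, -0.039, -0.338, -0.07, -0.063 and -0.014. When 1 library was left out, lag-1 lay between -0.028 and 0.4 and pyr-1 between -0.202 and 0.104. The cause was not tested. With 2 libraries at 2 h in the fit, 1 arm rests on few libraries, and depth limits utx-1, unc-14 and gst-4.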
